A study of Sus scrofa with 12 samples.

Results

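Mitochondrial fatty acid oxidation and ketone body metabolism were examined in the liver through 8 genes chosen by their roles in the pathway, of 31694 genes listed for each mRNA library. These were the carnitine shuttle genes CPT1A, SLC25A20 and CPT2, the acyl-CoA dehydrogenase genes ACADL and ACADM, the trifunctional protein gene HADHA, and the ketone body genes ACAT1 and BDH1. The genes were matched by symbol, all 8 were found, and all 8 passed the filter on low values with every library above it. The liver samples came from 3 Jinhua (JH) pigs, a fatty breed from China, and from 3 Landrace (LD) pigs, a commercial lean breed, which the labels call the experiment and the control group. All were uncastrated males of 70 days of age, the labels name no treatment, and each pig gave 1 mRNA library and 1 small RNA library. The comparison asks how the livers of a fat and a lean breed differ in expression. Breed cannot be told apart from anything else that differed between the 2 groups of animals, and the labels and methods do not give feeding state at sampling.

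Long-chain fatty acids enter mitochondria bound to carnitine. CPT1A on the outer membrane makes acylcarnitine and is the main control point of the pathway, SLC25A20 carries acylcarnitine across the inner membrane in exchange for carnitine, and CPT2 returns the acyl group to coenzyme A. Each turn of β-oxidation then starts with an acyl-CoA dehydrogenase chosen by chain length and, for long chains, goes on in the trifunctional protein of HADHA and HADHB. In the liver the acetyl-CoA that is formed can become ketone bodies in a route that ACAT1 opens and BDH1 ends, and pigs are known for a low capacity to make them.

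Values are RPKM as deposited, that is, read counts scaled to gene length and to the reads of the library. The read total behind the RPKM was recovered from the values and ranged from 5744909 in JH1 to 7914515 in LD3. These totals were below the clean reads that the paper gives for each library. Whole reads could be recovered for all 8 genes, from 92 reads of BDH1 in LD1 to 4231 reads of HADHA in JH1. They are the reads at the smallest gene length that made the values of all libraries whole. The ribosomal RNA gene RN18S was listed at 62257 RPKM in JH3 and between 1570 and 20160 RPKM in the other 5 libraries. Of 7 hepatocyte marker genes found in the files, all were expressed in every library, led by ALB at 27533 to 53893 RPKM, and their summed level was between 41333 and 48399 RPKM in JH and between 53619 and 69376 RPKM in LD. Summed markers of stellate cells, bile duct and blood were lower in every JH than in every LD library. Calls are defined in the next paragraph, and 1.36% of all tested genes were called lower in JH. The summed RPKM of 6 stellate cell and fibroblast markers was 52.3 to 85.6 in JH and 169 to 337 in LD, with 3 of 6 called lower (COL1A1, COL1A2 and COL3A1, all collagen genes). That of 5 bile duct markers was 9.23 to 19.8 in JH and 21.1 to 52.8 in LD, with 1 of 4 tested, EPCAM, called lower and KRT7 listed at 0 in all libraries. The 6 endothelial markers summed to 160 to 265 in JH and 209 to 267 in LD, the 5 macrophage markers found to 318 to 782 and 464 to 526, the 5 lymphocyte markers to 16.4 to 62.4 and 20.5 to 28.4, and the 3 erythroid markers to 90.2 to 122 and 213 to 393, with only HBB among these called, lower in JH. The endothelial sum was mostly CLEC4G, at 109 to 213 RPKM in JH and 135 to 195 in LD. PECAM1, KDR and VWF were lower in each JH pig than in any LD pig, as were 12.5% of all tested genes. PECAM1 was at 15.2 to 16.1 RPKM in JH and 25.7 to 30.1 in LD. STAB2, LYVE1 and CLEC4G overlapped between the breeds. The log2 fold changes of all 6 endothelial markers were below 0, with a median of -0.57, and none was called. The macrophage marker CD163 was listed at 0 in all libraries. Of these 5 calls, that of COL1A1 was kept in each of 15 alternatives, while each of the other 4 was lost in some that left out a library. In bulk tissue, fewer cells of a type and less RNA per cell cannot be told apart, and the part of cell composition in the results below was not tested.

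Of the 8 genes, CPT1A and ACADL rose in JH and none fell. Expression was tested with limma on log2(RPKM + 0.1) over 12993 genes, and calls required an adjusted p (Benjamini-Hochberg) below 0.05 together with a log2 fold change beyond 1 in either direction, with JH set over LD. Across all tested genes 1.02% were called higher in JH and 1.36% lower, against 2 and 0 of the 8 genes. Fold changes ran from -0.57 for ACADM to 2.13 for CPT1A on the log2 scale, with a median of 0.83 over the 8 genes and of 0.04 over all tested genes. All 3 JH values lay above all 3 LD values in CPT1A, ACADL, BDH1 and ACAT1, 4 of 8, where 10.8% of all tested genes showed this. Both calls were close to the threshold. No filter on low values, a fit without a variance trend, and leaving out JH1, JH2, LD1, LD2 or LD3 each left 0 of the 8 genes called, and without JH3 only CPT1A was called.

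**Figure D1:**
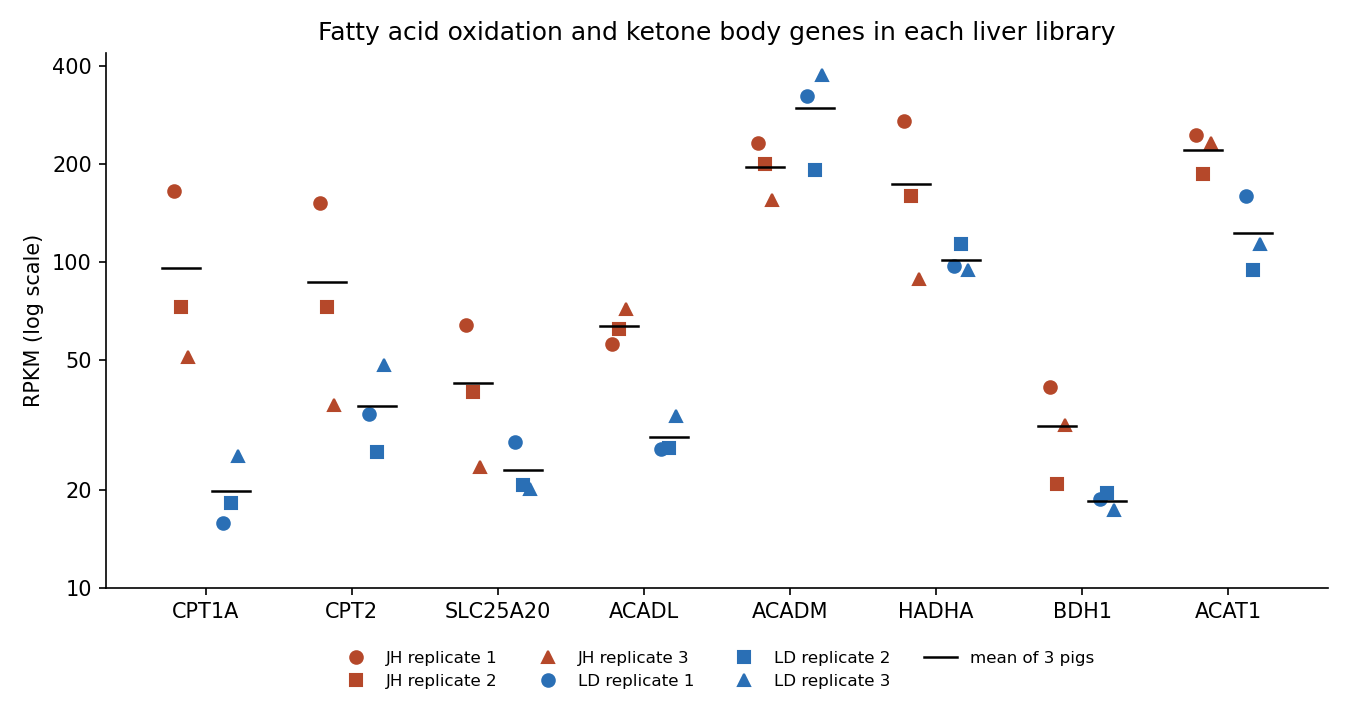
RPKM (log scale) of the 8 genes in each of the 3 JH (red) and 3 LD (blue) libraries, with the replicate number as the symbol shape and a black line at the mean of 3 pigs. CPT1A, ACADL, BDH1 and ACAT1 show no overlap between the breeds, while JH3 falls among or below the LD pigs for CPT2, SLC25A20 and HADHA.

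CPT1A showed the largest difference of the 8. Its level was 165 RPKM in JH1, 72.7 in JH2 and 51.0 in JH3, and 15.8 RPKM in LD1, 18.2 in LD2 and 25.3 in LD3, from 1337 to 3215 reads in JH and 379 to 679 in LD. The lowest JH pig was thus above the highest LD pig, and JH1 stood far above the other JH pigs. The mean was 96.3 ± 60.6 RPKM (SD, n = 3) in JH and 19.7 ± 4.98 RPKM (SD, n = 3) in LD. On the log2 scale JH exceeded LD by 2.13 (standard error 0.41, 95% interval 1.2 to 3.06, limma adjusted p = 0.037). A two-sided exact permutation test gave p = 0.1, the smallest that 3 pigs against 3 allow. Over 15 alternatives the fold change of CPT1A stayed between 1.65 and 2.50 on the log2 scale and the adjusted p from limma between 0.0132 and 0.139, and the lowest fold change, 1.65 with an adjusted p of 0.0506, was that without JH1.

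The other carnitine shuttle genes overlapped between the breeds through JH3. CPT2, the inner membrane partner of CPT1A, was at 152 RPKM in JH1, 72.7 in JH2 and 36.5 in JH3, and at 34.3, 26.2 and 48.3 RPKM in LD1, LD2 and LD3. JH1 and JH2 were above every LD pig, and JH3 lay within the LD range. For CPT2 the log2 difference of JH over LD was 1.07 (standard error 0.47, 95% interval 0.003 to 2.14, adjusted p = 0.279), and it was not called. Without JH1 it was 0.55. SLC25A20, the acylcarnitine carrier, was at 64.3 RPKM in JH1, 39.8 in JH2 and 23.5 in JH3, against 28.0, 20.7 and 20.1 RPKM in LD1, LD2 and LD3. Here too JH1 and JH2 were above every LD pig while JH3 was within their range. SLC25A20 had a log2 difference of 0.79 (standard error 0.36, 95% interval -0.03 to 1.60, adjusted p = 0.297), and one of 0.43 without JH1.

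The ratio of 2 genes within a library does not depend on how libraries are scaled. The ratio of CPT1A to CPT2 was 1.09 in JH1, 1.00 in JH2 and 1.4 in JH3, and 0.46 in LD1, 0.69 in LD2 and 0.52 in LD3. CPT1A was therefore at or above CPT2 in each JH liver and below it in each LD liver, although both genes differed severalfold among JH pigs. This ratio was picked after the values had been seen and was not tested. Of the 7 ratios with CPT1A, 5 did not overlap between the breeds, as did 10 of all 28 ratios among the 8 genes. The lack of overlap is thus not particular to CPT2. Each of these 10 ratios held CPT1A or ACADM, and of the ratios with ACADM only that to HADHA overlapped. No share over pairs of all tested genes is given, so these counts are not read as a trait of the 8 genes. Which of CPT1A and CPT2 is the higher also rests on the gene lengths used.

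ACADL, the long-chain acyl-CoA dehydrogenase, varied least of the 8 genes among the JH pigs. It was at 55.9 RPKM in JH1, 62.5 in JH2 and 72.0 in JH3, and at 26.6, 26.8 and 33.8 RPKM in LD1, LD2 and LD3. The groups did not overlap, and unlike in the carnitine shuttle genes JH3 was the highest JH pig and JH1 the lowest. The SD of log2 values within JH was 0.18 for ACADL and 0.87 for CPT1A, and 84.7% of all tested genes had an SD at least as large as that of ACADL. JH exceeded LD by 1.13 on the log2 scale (standard error 0.23, 95% interval 0.60 to 1.65, adjusted p = 0.0445). The call was kept in 3 of 15 alternatives, with an adjusted p from 0.0252 to 0.160 and a log2 fold change from 0.96 to 1.24, and in none of the 6 that left out a library. Under quantile normalization the log2 fold change was 0.96, below the limit, and the adjusted p from limma was 0.0993, also past its limit.

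ACADM, the medium-chain acyl-CoA dehydrogenase, was the single gene of the 8 with a lower mean in JH. It was at 233 RPKM in JH1, 200 in JH2 and 156 in JH3, and at 325, 192 and 375 RPKM in LD1, LD2 and LD3. LD2 lay among the JH pigs, and LD1 and LD3 were above all of them. Its difference of -0.57 on the log2 scale (standard error 0.31, 95% interval -1.26 to 0.13, adjusted p = 0.377) did not pass the test. The ratio of ACADL to ACADM was 0.24, 0.31 and 0.46 in JH1, JH2 and JH3 and 0.082, 0.14 and 0.090 in LD1, LD2 and LD3. No JH value of this ratio reached down to an LD value (two-sided p = 0.1 by exact permutation, adjusted p = 0.7 over the 7 ratios of ACADL). The other 6 ratios of ACADL overlapped between the breeds (exact permutation p from 0.2 to 0.9).

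HADHA, the subunit of the trifunctional protein that hydrates and dehydrogenates long chains, was at 272 RPKM in JH1, 160 in JH2 and 88.7 in JH3, and at 97.1, 114 and 94.9 RPKM in LD1, LD2 and LD3. JH1 and JH2 were above the LD pigs and JH3 was below them, while the LD pigs lay close together. HADHA differed by 0.63 on the log2 scale (standard error 0.38, 95% interval -0.22 to 1.47, adjusted p = 0.426), and without JH1 it was 0.23. Its partner HADHB, listed under the synonym LCTHIO and the next gene to HADHA in the RefSeq annotation of Sscrofa11.1, was at 203, 130 and 129 RPKM in JH1, JH2 and JH3 and at 105, 84.7 and 98.3 RPKM in LD1, LD2 and LD3. HADHB did not overlap between the breeds, and its difference of 0.65 on the log2 scale (standard error 0.26, adjusted p = 0.236) was not called.

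ACAT1, the mitochondrial thiolase that joins acetyl-CoA into acetoacetyl-CoA, was at 247 RPKM in JH1, 186 in JH2 and 233 in JH3, and at 160, 94.4 and 114 RPKM in LD1, LD2 and LD3. Every JH pig was above every LD pig and the JH pigs differed little. The difference was 0.88 on the log2 scale (standard error 0.27, 95% interval 0.27 to 1.49, adjusted p = 0.138). BDH1, which converts acetoacetate and β-hydroxybutyrate into each other, was at 41.4 RPKM in JH1, 20.8 in JH2 and 31.7 in JH3, and at 18.7, 19.5 and 17.3 RPKM in LD1, LD2 and LD3. JH2 was only just above the LD pigs. It rested on 112 reads, whose exact 95% Poisson interval of 17.1 to 25 RPKM, for counting error only, covers all 3 LD values. BDH1 differed by 0.70 on the log2 scale (standard error 0.29, 95% interval 0.06 to 1.35, adjusted p = 0.243).

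The order of the levels differed between the breeds. By mean RPKM in JH, ACAT1 was followed by ACADM, HADHA, CPT1A, CPT2, ACADL, SLC25A20 and BDH1, and the values of every neighbouring pair overlapped. In LD, ACADM was above ACAT1 without overlap and HADHA above CPT2 without overlap, and then ACADL, SLC25A20, CPT1A and BDH1 followed with overlapping values. CPT1A thus stood below 3 of the other genes in JH and below 6 in LD. RPKM rests on the gene length used, and the lengths that made the reads whole were 694 bases for BDH1 and 915 for ACADM, against 1648 to 3388 for the other 6 genes, so levels of different genes compare only as far as these gene models are complete.

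JH1 was the highest JH pig in 7 of the 8 genes, and JH3 was the lowest in 5. The order JH1 above JH2 above JH3 was found in CPT1A, CPT2, SLC25A20, ACADM and HADHA, 5 of 8, and in 29.6% of all tested genes. The median log2 difference of JH1 from JH3 was 1.01 over the 8 genes and 0.30 over all tested genes. Against the mean of the LD pigs, the median log2 difference over the 8 genes was 1.29 in JH1, 0.73 in JH2 and 0.42 in JH3. JH1 and JH2 were each above the LD range in 7 genes, and JH3 in 4. Shares over all tested genes are not given for these counts, nor for JH1 as highest or JH3 as lowest. They are therefore not read as a trait of the 8 genes. The SD of log2 values within JH was 1.03 for CPT2, 0.81 for HADHA and 0.72 for SLC25A20, where the median of all tested genes was 0.39. Within LD the same genes had an SD of 0.44, 0.14 and 0.26, with a median of 0.33 over all tested genes. JH1 had the lowest read total and JH3 the highest RN18S value, and the part of either in this spread was not tested. Without JH1 the median log2 fold change over the 8 genes was 0.51, and without JH3 it was 1.03.

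**Figure D2:**
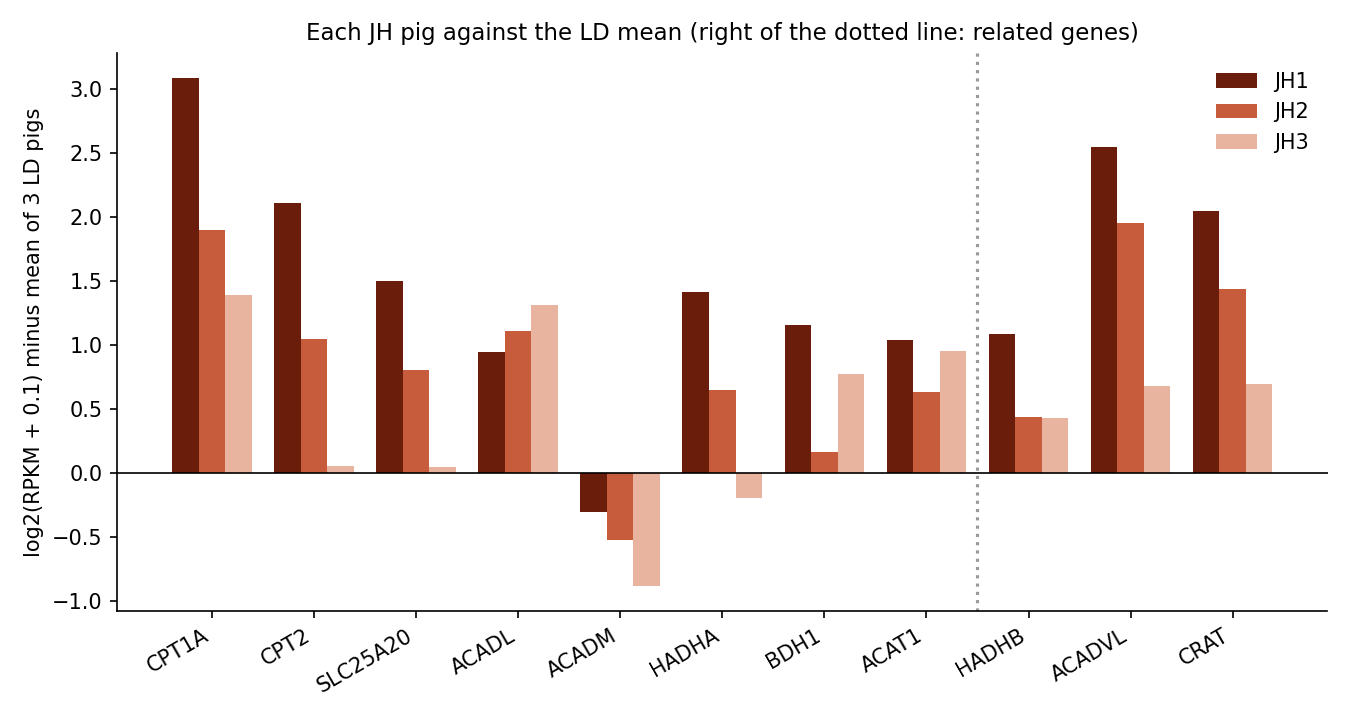
log2(RPKM + 0.1) of each JH pig minus the mean of the 3 LD pigs, for the 8 genes and, right of the dotted line, for HADHB, ACADVL and CRAT. JH1 is highest in most genes, ACADL is nearly level over the pigs, and CPT1A runs from 3.09 in JH1 to 1.39 in JH3.

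Among 31 further tested genes of the pathway, 0 were called higher in JH and IVD and AACS were called lower, where 1.02% and 1.36% of all tested genes were. At an unadjusted limma p below 0.05, 10 were higher and 3 lower, where 2321 of 12993 tested genes passed this limit in either direction. With voom on recovered reads, ACADVL and ACAD11, a further dehydrogenase, were called higher and the same 2 lower. Over all 12959 genes given to voom, 167 were called higher and 237 lower. The median log2 fold change of the 31 genes was 0.33, and 21 of 31 were above 0, as were 52.9% of all tested genes. In 10 all JH values lay above all LD values and in 4 all LD values above all JH values, against 10.8% and 12.5% of all tested genes. The order JH1 above JH2 above JH3 was found in 18 of them (58.1%). By role, the median log2 fold change was 0.52 over 5 carnitine shuttle genes, 0.46 over 9 acyl-CoA dehydrogenases, 0.20 over 13 genes of the β-oxidation spiral and -0.78 over 4 ketone body genes (AACS, ACAT2, BDH2 and OXCT1), which act in the cytosol or, for OXCT1, in the use of ketone bodies outside the liver. ECHS1, an enzyme that β-oxidation needs in every tissue, and CPT1B were listed at 0 in all 6 libraries, and a listed 0 can be a gene that was not counted.

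CRAT, the carnitine acetyltransferase, was at 180, 118 and 70.4 RPKM in JH1, JH2 and JH3 and at 36.2, 66.5 and 33.9 RPKM in LD1, LD2 and LD3, without overlap. Its log2 difference was 1.39 (standard error 0.39, adjusted p = 0.108), and 1.74 (adjusted p = 0.0417) without JH3. This was the 1 of 15 alternatives that called CRAT, and its adjusted p from limma reached 0.278 in others. CROT, the peroxisomal carnitine octanoyltransferase, was highest in JH3 instead, at 50.8, 70.3 and 97.1 RPKM against 39.9, 37.3 and 33.9 RPKM in LD, with a log2 fold change of 0.93 (adjusted p = 0.13). SLC25A45, a mitochondrial carrier, was low in all pigs, between 0.94 and 6.18 RPKM, with a log2 fold change of 0.52 (adjusted p = 0.725) that was -0.025 without LD3. Neither CRAT nor CROT passed the test, and their JH values ran in opposite order over the pigs.

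ACADVL, the very long-chain acyl-CoA dehydrogenase, listed under its NCBI gene ID, was at 120 RPKM in JH1, 79.1 in JH2 and 32.7 in JH3, and at 23.1, 21.5 and 16.9 RPKM in LD1, LD2 and LD3. The difference of 1.73 on the log2 scale (standard error 0.43, 95% interval 0.76 to 2.70) missed the threshold with an adjusted p of 0.0783, although no JH value overlapped the LD values. It was called in 6 of 15 alternatives, among them the 3 that rescaled the libraries (adjusted p from 0.0457 to 0.0488) and the one without JH3, where the log2 fold change was 2.25 with an adjusted p of 0.00858. ACADSB and ACADS, which act on short branched and short straight chains, were the most abundant dehydrogenases of the list, with log2 fold changes of 0.59 (adjusted p = 0.227) and 0.33 (adjusted p = 0.572), the latter 0.12 without JH1. IVD, which acts in leucine breakdown, fell in JH from 138 ± 22.1 RPKM (SD, n = 3) in LD to 58.3 ± 16.5 (SD, n = 3), which is -1.26 on the log2 scale (standard error 0.27, limma adjusted p = 0.048). This call was lost without JH2, JH3, LD1, LD2 or LD3, with log2 fold changes between -1.38 and -1.15.

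In the β-oxidation spiral, ECI1, an enoyl-CoA isomerase, had a log2 fold change of 0.22 (adjusted p = 0.711), which was 0.0074 without JH2, and ETFB, a subunit of the electron transfer flavoprotein that takes up electrons from the dehydrogenases, one of 0.71 (adjusted p = 0.182). ACAA2, the last enzyme of the spiral for shorter chains, was at 324 RPKM in JH1, 150 in JH2 and 50.3 in JH3 and at 286, 288 and 133 RPKM in LD1, LD2 and LD3. JH1 was thus above and JH3 below every LD pig. ACAA2 differed by -0.72 on the log2 scale (95% interval -2.09 to 0.64, adjusted p = 0.576), by -0.012 without JH3 and by -1.35 without JH1. Among ketone body genes, AACS, which activates acetoacetate in the cytosol for lipid synthesis, fell in JH to 13.8 ± 4.31 RPKM (SD, n = 3) from 37.1 ± 7.92 (SD, n = 3) in LD, which is -1.44 on the log2 scale (standard error 0.29, limma adjusted p = 0.042). It was lost without JH1, JH2, LD1, LD2 or LD3, with log2 fold changes between -1.63 and -1.30. ACAT2, the cytosolic thiolase, had a log2 fold change of -0.64 (adjusted p = 0.330). BDH2, a cytosolic dehydrogenase listed under its NCBI gene ID, had one of 0.62 (adjusted p = 0.426), and 0.30 without LD2.

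**Figure D3:**
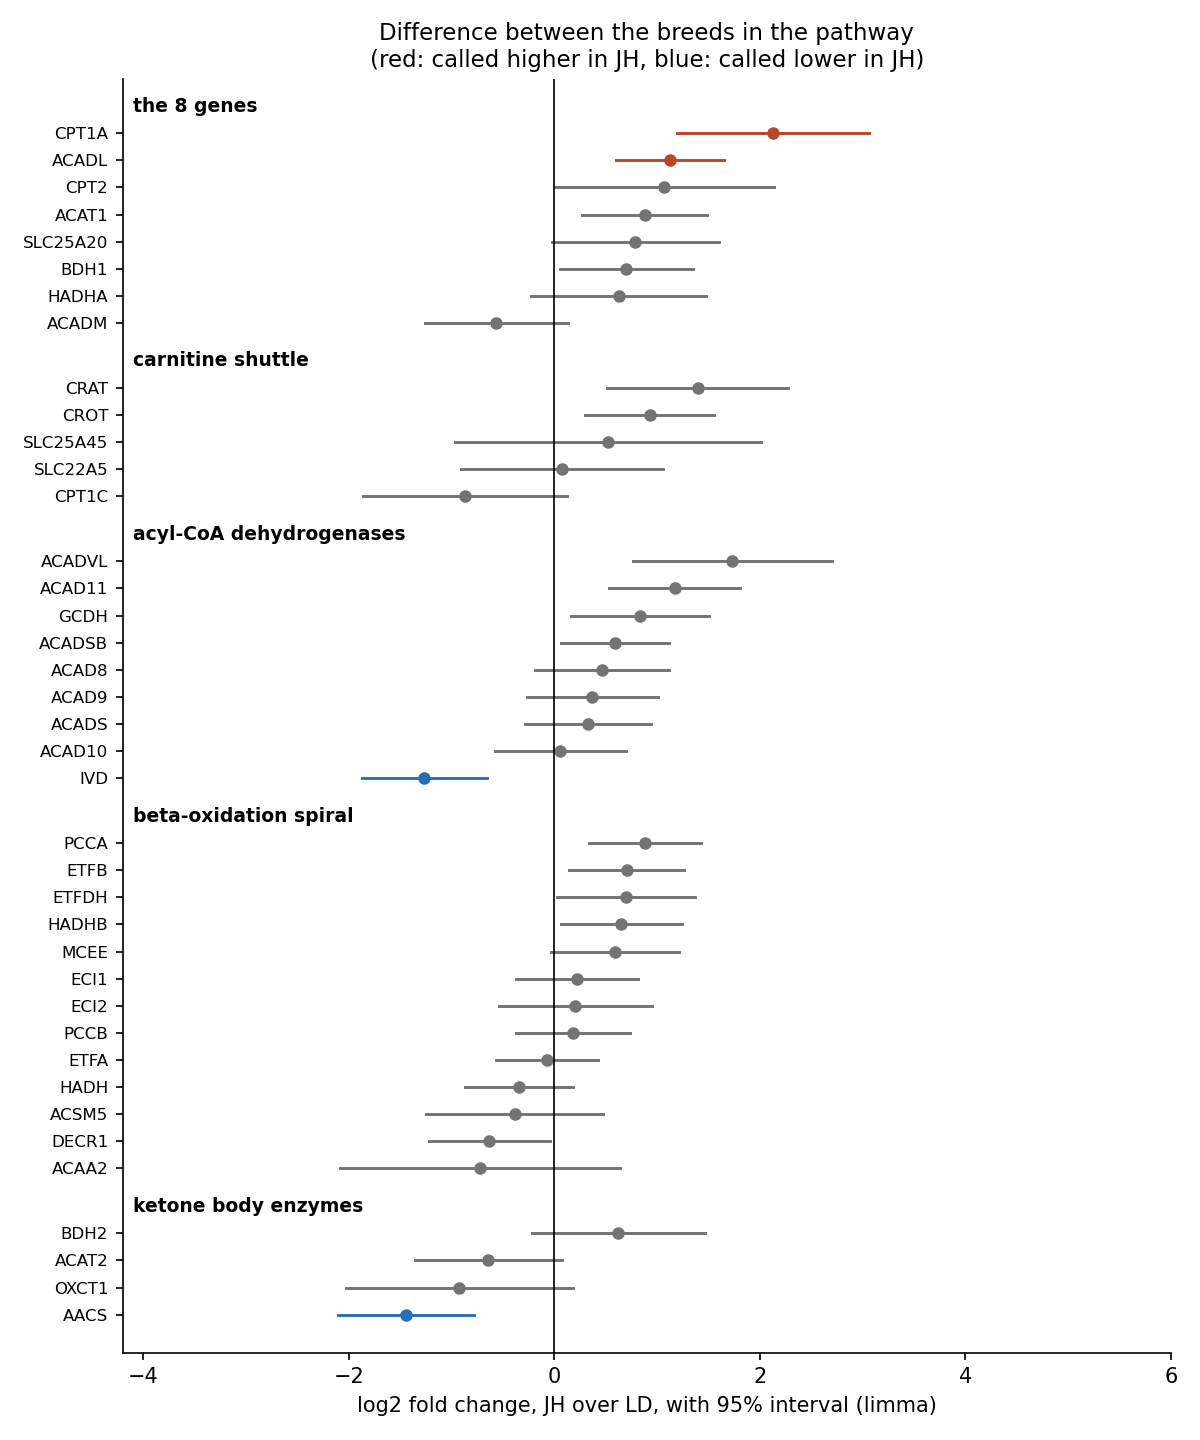
log2 fold change of JH over LD from limma (point) with its 95% interval (line) for the 8 genes and 31 further tested genes of the pathway, grouped by role. Only CPT1A and ACADL are called higher in JH (red), and IVD and AACS are called lower (blue).

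Of 9 tested regulators of the pathway, FGF21 was called higher and none lower, against 1.02% and 1.36% of all tested genes. FGF21, a hormone that the liver releases in fasting, was at 23.1, 10.3 and 5.93 RPKM in JH1, JH2 and JH3 and at 0.47, 0.94 and 0.085 RPKM in LD1, LD2 and LD3. The LD values stand for 5, 11 and 1 reads, against 68 to 197 reads in JH, and only LD2 of the LD pigs reached the filter, so the gene was tested because it was high in JH. The fitted difference of 4.56 on the log2 scale (standard error 0.66, adjusted p = 0.0117) depends on the pseudocount, at 3.08 with a pseudocount of 1 and 5.0 with 0.01, and its adjusted p was 0.0539 without LD1. The JH values of FGF21 had the same order over the pigs as those of CPT1A, an order found in 29.6% of all tested genes. PPARA, the fatty acid sensor that drives many genes of the pathway, had 19.4, 6.85 and 15.0 RPKM in JH1, JH2 and JH3 and 7.89, 10.6 and 11 RPKM in LD1, LD2 and LD3, with a log2 fold change of 0.37 (95% interval -0.48 to 1.22, adjusted p = 0.652) that was 0.061 without JH1 and 0.80 without JH2. CREB3L3, a transcription factor of the fasting liver, had a log2 fold change of 1.02 (adjusted p = 0.142), and of 1.34 (adjusted p = 0.0299) without JH3. This was the 1 of 15 alternatives that called CREB3L3, and its adjusted p from limma reached 0.334 in others. Values were, for ESRRA, a receptor that controls mitochondrial genes, 0.65 (adjusted p = 0.243) and, for PDK4, the kinase that holds back pyruvate oxidation, -0.67 (adjusted p = 0.495), with -0.18 without LD3 and -1.11 without LD1. PPARGC1A, listed as PPARGC-1, and PRKAA1 were listed at 0 in all libraries. ACACB, the enzyme whose product malonyl-CoA inhibits CPT1A, did not pass the filter. It was singled out after its values were seen, with 28 to 38 reads in the JH pigs and 2 to 7 in the LD pigs.

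None of 10 tested genes that reflect mitochondrial content, such as ATP5B and ATP5A1 of the ATP synthase and the chaperone HSPD1, were called in either direction, where 1.02% of all tested genes were called higher and 1.36% lower. At an unadjusted limma p below 0.05, 1 was higher and 0 lower, where 2321 of 12993 tested genes passed this limit in either direction. With voom on recovered reads 0 were called, against 167 higher and 237 lower of 12959 genes. The log2 fold changes of the 10 genes were between -0.17 and 0.80 with a median of 0.38, and 9 of 10 were above 0. All JH values lay above all LD values in 4 of 10 (10.8% of all tested genes), TOMM20, TFAM, ATP5A1 and HSPD1, with the highest log2 fold change for TOMM20, an import receptor of the outer membrane. ATP5B had a log2 fold change of 0.11 (adjusted p = 0.843) that turned to -0.035 with rescaled libraries, HSPD1 of 0.36 (adjusted p = 0.466) and ATP5A1 of 0.40 (adjusted p = 0.416). SDHA was listed at 0 in all libraries.

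The genes whose profile over the 6 libraries was most like that of ACADL were ENO4, KCNK5, CCT6A, PDE12 and SIRT4. The root mean square difference of their centred log2 values from ACADL was between 0.17 and 0.18. None of the 5 was called, with adjusted p from limma between 0.0635 and 0.156. ENO4 was near the floor, at 0.82, 1.06 and 1.22 RPKM in JH1, JH2 and JH3 and 0.33, 0.25 and 0.45 in LD1, LD2 and LD3. No LD value of ENO4 reached the filter, so it was tested because it was higher in JH. Of the 7 other genes of the set, ACAT1 was nearest to ACADL, at 0.34 and rank 174 of the tested genes, and ACADM was farthest, at 0.92.

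The small RNA libraries were read for miRNAs with a known or proposed link to CPT1A. Of the names sought, ssc-miR-370 and ssc-miR-122 were listed, and miR-33a and miR-33b were not analysed here. ssc-miR-370 was at 0.79 RPM in JH1, 3.03 in JH2 and 1.69 in JH3, and at 8.62, 5.74 and 10.4 RPM in LD1, LD2 and LD3, which stand for 10 to 37 reads in JH and 73 to 145 reads in LD. Every LD pig was above every JH pig, the reverse of CPT1A. Within a breed the order was not simply reversed: JH1 had the least miR-370 and the most CPT1A of the JH pigs, but LD3 had the most of both among the LD pigs. The 10 reads of JH1 are also the fewest that the file of that library lists for any miRNA above 0. LD exceeded JH in miR-370 by 1.99 on the log2 scale (standard error 0.40, adjusted p = 0.0112 from limma over 241 miRNAs), and at the unadjusted threshold used for miRNAs 10.4% of those tested were called higher in LD. Median scaling (1.59, adjusted p = 0.0728) and leaving out LD3 (1.81, adjusted p = 0.0534) took the adjusted p of miR-370 past 0.05. ssc-miR-122, the most liver-specific miRNA, had a log2 fold change of -0.01 (95% interval -0.55 to 0.53, adjusted p = 0.979), and of -0.41 under median scaling, with 147073 to 280427 RPM in JH and 174803 to 219414 RPM in LD. Whether miR-370 acts on CPT1A in these livers was not tested.

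**Figure D4:**
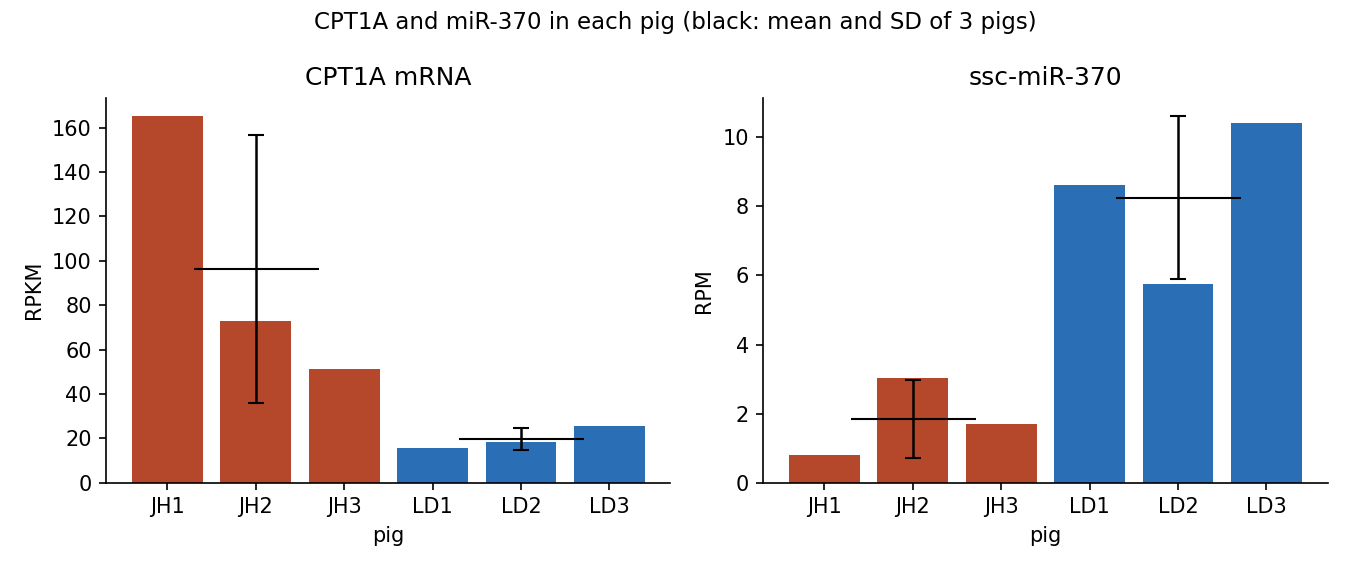
CPT1A mRNA (RPKM, left) and ssc-miR-370 (RPM, right) in each pig, as bars from 0, with the mean and SD of 3 pigs per breed in black. CPT1A is at least 51.0 RPKM in the JH pigs and at most 25.3 in the LD pigs, and miR-370 is at most 3.03 RPM in JH and at least 5.74 in LD.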

How the data were processed

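Liver mRNA of 3 JH and 3 LD pigs was compared, with the small RNA libraries read for 2 miRNAs. Per the paper's methods, the authors aligned 50 bp single reads to Sus scrofa 10.2 with TopHat2 (2.0.13 in the submitters' processing notes) and counted them with gfold. Each deposited mRNA file lists RPKM values, and each deposited small RNA file RPM values, which the authors scaled to the clean reads. The files give neither strand nor coordinates. Groups and replicate numbers came from the sample titles.

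Genes that reached 0.5 RPKM in 3 or more libraries were tested with limma 3.58.1 in R 4.3.3 (lmFit, eBayes with a trend) on log2(RPKM + 0.1), and miRNAs that reached 1 RPM in 3 or more libraries on log2(RPM + 0.5). For miRNAs the limits of a call were an unadjusted p of 0.05 and a log2 fold change of 1 in either direction. Fold changes on these scales understate the change of low genes. Read totals, gene lengths and whole reads were searched for from the RPKM values, and 17942 of 19614 genes above 0 (91.5%) were resolved at under 0.05 expected chance matches. Intervals from read numbers describe counting error only and leave out the spread between pigs. Reads are not independent molecules, so such intervals can be too narrow even for that. The limma p-values set the difference between the breeds against the spread among pigs of a breed, moderated over all tested genes. Symbols missing in the files were matched by synonym or gene ID of RefSeq (Sscrofa11.1). Python 3.11.15 with scipy 1.17.1, pandas 2.3.3 and numpy 2.4.6 made the tables, and matplotlib 3.10.9 drew the plots.

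The genes and all lists were chosen with earlier results of these data known, and some ketone body genes are not reported here and were left out of the list's counts. Besides the 8 genes, the text names listed genes that passed the test, the 3 most abundant of each pathway list (of the marker lists only ALB and those called), HADHB, ACADVL, PPARA and PPARGC1A, and the 5 genes with profiles most like ACADL. Alternatives were other pseudocounts, no filter, quantile, median and rescaled normalization, no trend, no fold change limit, the replicate block and each library left out. limma's voom on recovered reads was added after the values were seen.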

Additional observations from a re-analysis of the deposited data

How the results depend on the processing

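The direction of all 8 genes held in each of 15 alternatives, and the median log2 fold change over them stayed between 0.51 and 1.03, against 0.83 as reported. The 6 genes that were not called stayed so throughout. The number of the 8 genes called went from 2 to 1 with a pseudocount of 0.01, quantile normalization, median scaling, rescaling without the top genes and RN18S, and the replicate block, to 0 with no filter or no trend, and to between 0 and 1 with a library left out. A pseudocount of 1 and voom on recovered reads left it at 2. Dropping the fold change limit reused the same fit and could not change this number. All 310 genes under the adjusted p limit had an absolute log2 fold change of at least 1.08. That setting is not counted among the 15 alternatives. ACADL lost its call with a pseudocount of 0.01 (log2 fold change 1.13), no filter (1.13), quantile normalization (0.96), median scaling (1.11), the rescaling (0.99) and no trend (1.13), and was between 1.03 and 1.24 with a library left out. CPT1A lost it with no filter (2.13), the replicate block (2.13, adjusted p = 0.0633) and no trend (2.13), and was between 1.65 and 2.50 with a library left out, where it kept its call only without JH3. The filter changes how many genes are adjusted for, and other causes were not tested.

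Over all genes 310 were called, 199 with a pseudocount of 0.01, 200 with no filter, and 79 to 406 with a library left out. The rescaling moved the median log2 fold change of all genes from 0.04 to -0.10. A pseudocount of 5 took the called miRNAs from 30 to 14. With the replicate block 253 genes and 29 miRNAs were called. After each gene was centred within its breed, JH and LD libraries of the same number correlated with r of -0.02, 0.05 and 0.18 for mRNA, and 1 of 3 JH libraries correlated best with the LD library of its number, so the numbers were not taken as pairs. The replicate block also brought ACADVL past the threshold (adjusted p = 0.0481) and took the calls of IVD (0.0688), AACS (0.0704) and HBB (0.0526). The log2 fold change of ATP5B turned to -0.035 after the rescaling. With a library left out, that of SLC25A45 was between -0.025 and 1.26, turning its sign without LD3, and that of ssc-miR-122 between -0.21 and 0.25, turning its sign without JH2 (0.25), LD1 (0.012) or LD3 (0.059). With a pseudocount of 5 ssc-miR-370 fell under the fold change limit, at 0.95 (adjusted p = 0.00672). Depth limits the genes of few reads, BDH1 among the 8.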
